A study of Mus musculus with 23 samples.

Results

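Tumor cells of 2 murine glioma lines, CT2A and GL261, were compared after selection from brain tumors. The comparison used 7 of the 23 libraries of the study, 3 of CT2A and 4 of GL261, which were chosen by their labels and by no measured value. The CT2A group (libraries 69, 70 and 71) was CT2A-hCD19-luc, a line that carries firefly luciferase and a truncated human surface protein as a tag. The GL261 group (libraries 81, 82, 83 and 84) was GL261-hCD19-luc2, with its own luciferase vector and the same tag. By the study's methods, 200000 cells of adherent cultures were implanted into the right striatum of female albino C57BL/6 mice aged 7 to 10 weeks, and tumor cells were then pulled from the dissociated tumors with magnetic beads against the tag. No treatment is given for any of these tumors. Each group is a single cell line, and the luciferase lines from which they were made were cultured under different selection drugs, so that line, vector and drug cannot be told apart. The study counts replicates of these selected cells as mice, although the labels tie no library to a mouse, and the p-values measure the spread between these samples of 1 line each. The other 16 libraries were bulk tumors and selected cells of neurosphere-derived tumors.

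Transcription factors bind DNA and set which genes a cell can use, and some of them mark a lineage. SOX10, OLIG1 and OLIG2 are the factors of the oligodendrocyte lineage, SOX10 also serves neural crest and Schwann cells, SOX5, SOX6 and SOX9 act in cartilage as well as in glia, and RUNX, TWIST and PRRX factors mark progenitors of bone and connective tissue. HOX genes record the position of a cell along the body axis and are silent in normal forebrain.

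Estimated reads were summed per gene, and levels are CPM, the reads of a gene scaled to the size of its library with TMM normalization. Values are listed in the order of libraries 69, 70 and 71 for CT2A and 81, 82, 83 and 84 for GL261. Log2 fold changes are CT2A minus GL261 with their standard errors (±), and a gene was called higher or lower at an adjusted p under 0.05 in edgeR's quasi-likelihood test. A gene named with its values was called unless a p above that threshold is given. The libraries held 8325102 to 9641749 estimated reads in CT2A and 7599935 to 10548568 in GL261. Of 13789 genes tested, 24.0% were higher and 26.8% lower in CT2A, together 50.8%, and the median log2 fold change was -0.015. These shares are the background for the counts of every gene list below. The groups did not overlap in 58.4% of these genes.

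GL261 library 81 stood apart from the rest of its group. Its log2 CPM had Pearson correlations across genes of 0.934 to 0.944 with libraries 82 to 84, while the other pairs within a line had 0.976 to 0.987 and pairs between the lines 0.732 to 0.777 (genes are not independent replicates). Per1, a gene of the circadian clock, was at 26.8, 44.95 and 34.8 CPM in CT2A and at 460.5, 81.7, 101 and 78.4 CPM in GL261. Cirbp, an RNA-binding gene induced by cold, was at 19.6, 21.8 and 22.9 CPM against 237, 38.2, 45.7 and 40.03 CPM. In both genes library 81 lay far above the other 6 libraries, and without any 1 CT2A library neither was called (adjusted p = 0.0534 to 0.114). High values of both were not confined to library 81 in the study. Neurosphere-derived CT2A library 59, scaled with all libraries, was at 542.3 CPM for Per1 and 149.9 CPM for Cirbp. The others of its group were at 47.9 to 78.9 CPM and 32.4 to 57.2 CPM. Library 59 was kept in the comparison with neurosphere-derived cells below. Without library 81 the log2 fold change went from -2.34 to -1.29 for Per1 and from -2.07 to -0.95 for Cirbp. Without it, 32.0% of 13809 genes were higher and 32.6% lower, together 64.6%. Of the 6958 genes called with all 7 libraries and tested again, 6947 were called in the same direction without it.

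Markers of other cells remained in both groups. The 20 macrophage and monocyte markers summed to 1204 to 2443 CPM in CT2A and to 954 to 1833 CPM in GL261 libraries 82 to 84, but to 334 CPM in library 81. Their defining leukocyte gene Ptprc was at 46.7, 47.2 and 97.0 CPM in CT2A and at 7.32, 60.4, 64.8 and 40.9 CPM in GL261. Of these 20 markers 1 was called, the endotoxin co-receptor gene Cd14, which was lower in CT2A. The 14 endothelial markers summed to 111 to 179 CPM in CT2A and to 282 to 797 CPM in GL261, and 10 of them were lower. The 12 T cell markers summed to 4.495 to 10.3 CPM against 16.4 to 26.8 CPM, and the 8 NK cell markers to 2.25 to 3.98 CPM against 12.3 to 35.2 CPM. Single genes carried much of these sums in GL261. The NK cell gene Klrk1 alone was at 21.7, 5.15, 6.53 and 25.7 CPM, while Ncr1 reached at most 0.251 CPM. The endothelial gene Ly6c1 alone was at 139, 96.0, 126 and 181 CPM, and the T cell gene Lck at 7.21, 5.86, 5.65 and 7.59 CPM. The defining T cell gene Cd3e was at 0.112 to 0.724 CPM in CT2A and at 0.430 to 2.81 CPM in GL261. The B cell gene Ms4a1 reached at most 0.514 CPM, the hemoglobin gene Hba-a1 0.845 CPM, the neuronal gene Rbfox3 3.03 CPM and the astrocyte gene Aqp4 6.52 CPM in any of the 7 libraries. The defining endothelial gene Pecam1 was called lower in CT2A, at 9.29, 9.10 and 12.6 CPM against 11.7, 23.1, 54.6 and 26.3 CPM. Mog, the defining gene of mature oligodendrocytes, was also lower in CT2A, and its values are given with the myelin genes below. Fewer cells of a type and less RNA per cell cannot be told apart in such samples, and the part of other cells in the results was not tested.

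Differences of at least 8-fold with at least 10 CPM in the higher line were called at 2.57% of the tested genes on the CT2A side and at 3.52% on the GL261 side. The largest were in genes read in 1 line and hardly or not at all in the other. Gpr149, an orphan receptor gene, was at 109, 98.3 and 94.4 CPM in CT2A and had no read in GL261, which made it at least 314-fold higher with a floor of 3 counts per library. The collagen gene Col24a1 was at 15.8, 15.7 and 22.1 CPM and at least 55.7-fold higher by the same floor. Neither gene had a read in any GL261 library. On the other side Moxd1, a relative of dopamine beta-hydroxylase, was at 0.483, 0.787 and 0.7195 CPM in CT2A and at 2011, 2387, 2492 and 2384 CPM in GL261 (log2 fold change -11.73 ± 0.26). Car6, a secreted carbonic anhydrase gene, had no read in CT2A and 94.03, 69.5, 71.3 and 45.6 CPM in GL261, at least 209-fold lower in CT2A. Rfx6, a factor gene of pancreatic endocrine cells, also had no read in CT2A and was at 58.3, 20.9, 34.02 and 59.7 CPM in GL261, at least 129-fold lower.

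Of 751 genes of transcription factors and cofactors in 47 family lists, 460 passed the minimum level and were tested, and 80 had no read in any of the 7 libraries. Of those tested, 144 (31.3%) were higher and 134 (29.1%) lower in CT2A, against 24.0% and 26.8% of all genes. Their median log2 fold change was 0.142, against -0.015 over all genes. Without GL261 library 81, 198 of 464 were higher and 148 lower, and the shares of all genes were then 32.0% and 32.6%. HOX cluster C, SNAI and TWIST, RUNX and SMAD genes lay mostly on the CT2A side, and STAT, IRF, SOX, neural bHLH and AP-1 genes mostly on the GL261 side.

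**Figure D1:**
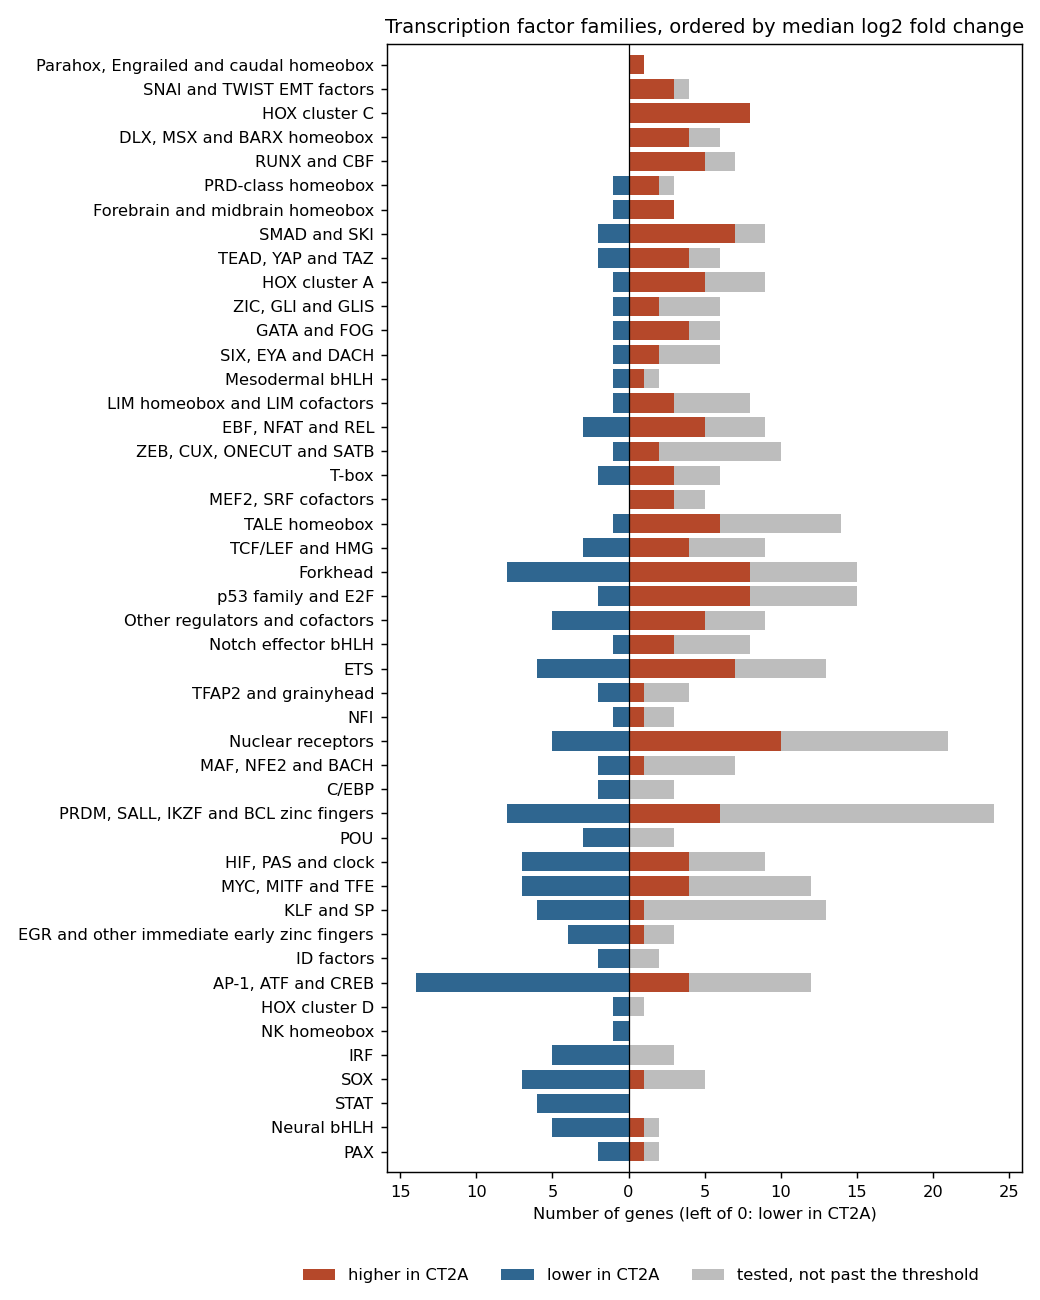
Counts of transcription factor genes in each family that were called higher in CT2A (red, to the right), called lower (blue, to the left) or tested without a call (grey), with families ordered by their median log2 fold change. All 8 tested HOX cluster C genes lie on the right and all 6 tested STAT genes on the left.

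GL261 cells held the factors of the oligodendrocyte lineage at high levels and CT2A cells near 0. Sox10 was at 0.845, 0.4496 and 0.617 CPM in CT2A and at 1151, 849, 795 and 778 CPM in GL261 (log2 fold change -10.43 ± 0.31, adjusted p = 4.74e-07). Olig1 was at 1.81, 3.48 and 2.67 CPM against 802, 652, 650.0 and 696 CPM (log2 fold change -8.03 ± 0.26, adjusted p = 4.74e-07). Olig2 was at 0.362, 0.787 and 0.206 CPM against 173, 219, 191 and 182 CPM (log2 fold change -8.697 ± 0.31, adjusted p = 7.03e-07). The log2 fold change of Olig2 was -9.35 without CT2A library 70, which held the most of its few CT2A reads. No CT2A library came near any GL261 library in these 3 genes. By TPM, a scale that also corrects for transcript length, Sox10 ranked 2 and Olig1 ranked 3 among the listed factor genes in GL261. Their levels there were 536 ± 52.9 TPM and 526 ± 16.1 TPM (SD, n = 4).

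The SOX family leaned to GL261, with 7 of 12 tested genes lower and 1 higher in CT2A (median log2 fold change -1.95). Sox6, a partner of other SOX factors in glia and cartilage, was at 0.724, 1.24 and 1.23 CPM in CT2A and at 237, 483, 485 and 536 CPM in GL261 (log2 fold change -8.64 ± 0.43). Sox8, the close relative of Sox10, was at 1.09, 0.674 and 0.411 CPM against 8.71, 38.2, 34.6 and 17.2 CPM (log2 fold change -5.09 ± 0.66). Library 81 was the lowest GL261 library in both and still above every CT2A library. Sox2, a factor of neural stem cells, was at 106, 90.2 and 103 CPM against 221, 243, 232 and 260.1 CPM (log2 fold change -1.26 ± 0.12). Sox9, which drives cartilage and astrocyte fates, was the 1 member on the CT2A side, at 88.1, 69.8 and 55.2 CPM against 1.08, 1.72, 3.14 and 1.41 CPM (log2 fold change 5.29 ± 0.34, adjusted p = 8.38e-06). Sox4, an abundant factor of progenitors, was at 427, 444 and 423 CPM against 482, 303, 286 and 357 CPM, with overlap and no call (adjusted p = 0.265). Without library 81 Sox4 was called higher, with a log2 fold change of 0.45 (adjusted p = 0.00551).

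**Figure D2:**
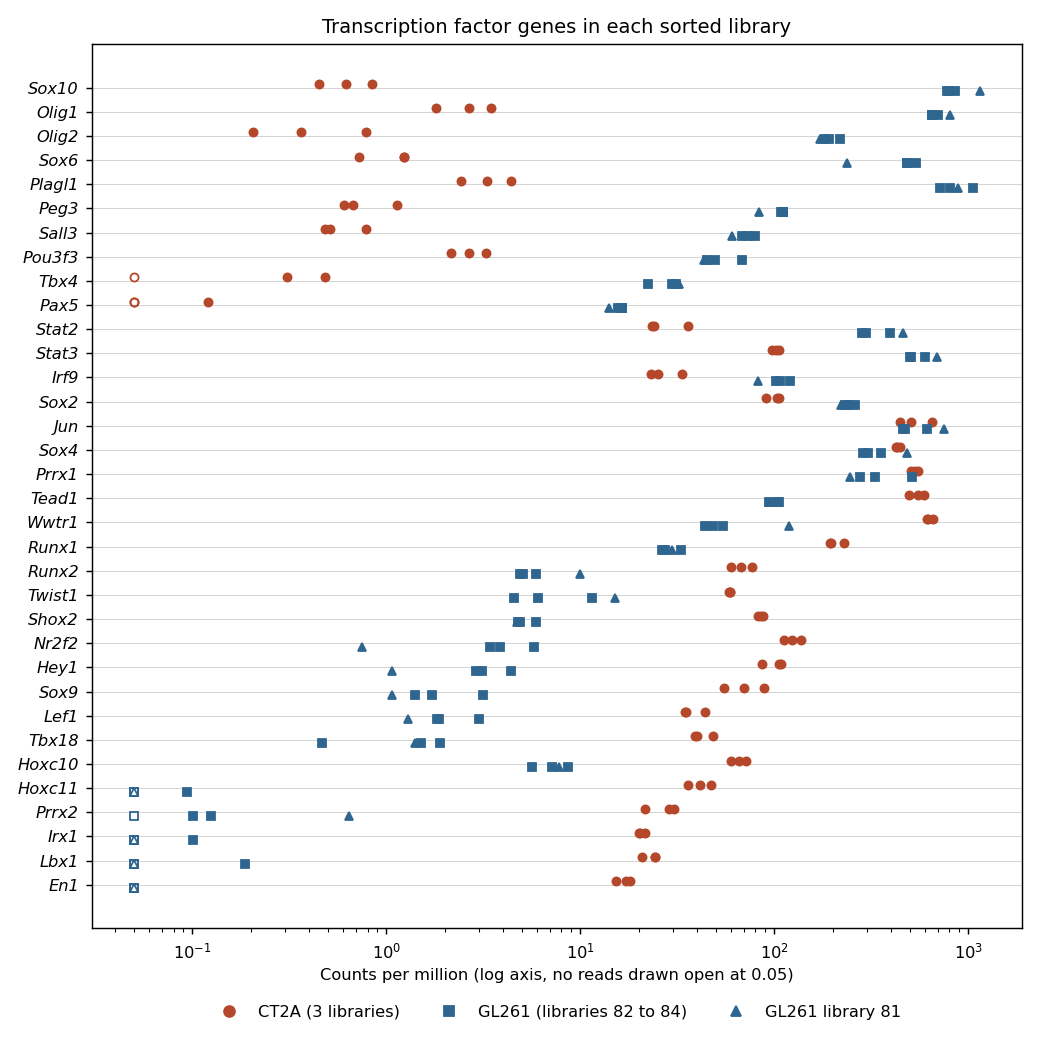
CPM of 34 transcription factor genes on a log axis, with 1 point per library (red circles CT2A, blue squares GL261, blue triangles GL261 library 81, open symbols at the left edge for libraries with no read). Sox10 lies between 778 and 1151 CPM in GL261 and at no more than 0.845 CPM in CT2A, En1 lies between 15.3 and 18.1 CPM in CT2A with no read in GL261, and the groups overlap for Jun and Sox4.

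Markers of oligodendrocyte progenitors lay on the side of Sox10 and Olig2. Of 17 tested, 13 were lower and 1 was higher in CT2A (median log2 fold change -4.32). Gpr17, a receptor gene of committed progenitors, was at 0.362, 0.225 and 0.308 CPM in CT2A and at 98.4, 738, 732 and 894 CPM in GL261 (log2 fold change -10.95 ± 1.08). Pcdh15, a protocadherin gene of progenitors, was at 0.241, 0 and 0.103 CPM against 178, 372, 388 and 339.8 CPM (log2 fold change -11.32 ± 0.56, or -12.22 without CT2A library 69). Library 81 was the lowest of its group for both. The 1 marker on the CT2A side was Pdgfra, the PDGF receptor gene that progenitors share with fibroblasts, at 192, 200.2 and 207 CPM against 50.03, 93.2, 90.0 and 108 CPM (log2 fold change 1.23 ± 0.23). The proteoglycan gene Vcan was at 866, 1130.2 and 1248 CPM against 338, 883, 928 and 315 CPM and was not called (adjusted p = 0.132).

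Of 15 tested myelin genes 10 were lower and 1 was higher in CT2A (median log2 fold change -3.37). Mog, a gene of the outer myelin surface, was at 0.121, 0.112 and 0.103 CPM in CT2A and at 28.6, 39.3, 34.02 and 39.6 CPM in GL261 (log2 fold change -8.15 ± 0.30). Mog also served as a defining marker of normal oligodendrocytes, and the part of such cells in its values was not tested. Bcas1, a gene of early myelinating cells, was at 9.78, 10.9 and 16.04 CPM against 254, 389.6, 387 and 320.3 CPM (log2 fold change -4.78 ± 0.26). Cnp, an enzyme gene of myelin sheaths, was at 17.3, 18.2 and 23.02 CPM against 218, 338, 258 and 228 CPM (log2 fold change -3.74 ± 0.22). All 4 GL261 libraries, library 81 included, held these genes above every CT2A library. Aspa, the gene of the enzyme that splits N-acetylaspartate, was the 1 marker on the CT2A side, at 8.33, 10.7 and 7.61 CPM against 0.108, 0.909, 1.004 and 0.187 CPM (log2 fold change 4.005 ± 0.61).

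Schwann cell and neural crest markers split, with 10 of 19 tested lower and 4 higher in CT2A. Erbb3, the neuregulin receptor gene of Schwann cell precursors, was at 0.362, 0.899 and 0.7195 CPM in CT2A and at 174, 595, 605 and 733 CPM in GL261 (log2 fold change -9.595 ± 0.71). Ngfr, the low-affinity nerve growth factor receptor gene, was at 0, 0.225 and 0.206 CPM against 45.3, 36.97, 39.5 and 38.2 CPM (log2 fold change -7.95 ± 0.39). L1cam, a neural adhesion gene, was at 2.17, 2.81 and 3.08 CPM against 179.9, 261, 236 and 386 CPM (log2 fold change -6.61 ± 0.35). The 4 higher markers were Snai2, Twist1, Sox9 and Prx, of which all but the Schwann cell scaffold gene Prx are also listed as transcription factors. Prx was not called without any 1 of 5 libraries, GL261 82, 83 and 84 and CT2A 70 and 71 (adjusted p = 0.0651 to 0.185). Of 6 tested melanocyte markers 4 were lower in CT2A. Kit, the stem cell factor receptor gene, was at 0.483, 0.562 and 2.26 CPM against 358, 220.4, 231 and 148 CPM (log2 fold change -7.701 ± 0.56, or -8.79 without CT2A library 71). Gpnmb, a lysosomal glycoprotein gene that macrophages also express, was at 49.2, 59.5 and 69.8 CPM against 5897, 3378, 3838 and 3813 CPM (log2 fold change -6.15 ± 0.30). Gpnmb was highest in library 81, in which the macrophage marker sum was the lowest of the 7. The part of macrophages in the Gpnmb values was not tested.

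The other neural lists leaned less to either side. Calls in the astrocyte list (55.6%) and the neural stem cell list (58.8%) were not far from the 50.8% of all genes. Of 18 tested astrocyte markers 7 were lower and 3 higher in CT2A. S100b, a calcium-binding gene of glia, was at 9.54, 10.3 and 12.2 CPM against 151, 183, 151 and 251 CPM (log2 fold change -4.102 ± 0.24). Gja1, the astrocyte connexin gene, was at 228, 213 and 232 CPM against 46.8, 126, 141 and 99.7 CPM (log2 fold change 1.12 ± 0.32), and was not called without CT2A library 69 (adjusted p = 0.0537) or 71 (0.0534). Of 17 markers of neural stem cells 6 were lower and 4 higher (median log2 fold change 0.068). The intermediate filament gene Vim was at 2598, 2357 and 1978 CPM against 4383, 2639.7, 2728 and 3402 CPM and was not called (adjusted p = 0.0798). Of 13 tested neuronal markers 4 were called (30.8%, below the 50.8% of all genes), and the median log2 fold change of the 13 was 0.837. Of the 4 called, 3 were lower, Map2, Tubb3 and Syt1, while Stmn2 was higher. Syt1, a gene of synaptic vesicles, was not called without any 1 of 5 libraries, GL261 82 and 83 and CT2A 69, 70 and 71 (adjusted p = 0.0533 to 0.124). Map2, a microtubule gene of dendrites, was at 70.8, 81.6 and 77.2 CPM against 277, 274, 285 and 317 CPM (log2 fold change -1.91 ± 0.13).

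**Figure D3:**
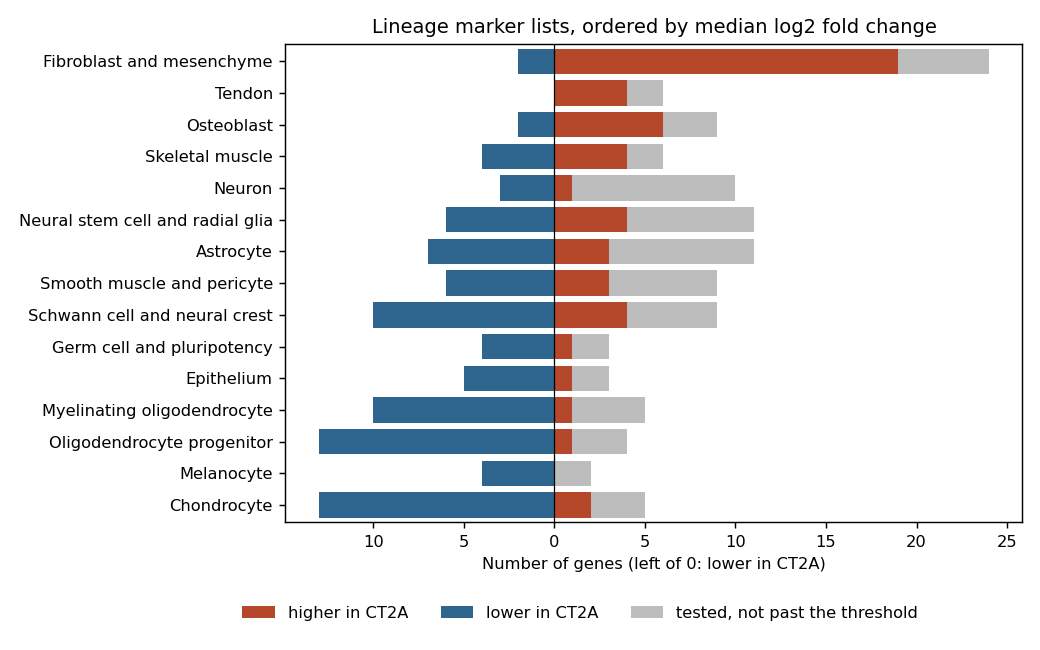
Counts of lineage marker genes called higher (red, to the right), called lower (blue, to the left) or tested without a call (grey) in CT2A, with lists ordered by their median log2 fold change. Fibroblast and mesenchyme markers lean to CT2A with 19 higher and 2 lower, and the chondrocyte and oligodendrocyte progenitor lists to GL261 with 13 lower each.

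Over all 15 lineage lists 289 genes were listed and 189 tested, of which 47 (24.9%) were higher and 82 (43.4%) lower in CT2A. Over all genes tested the shares were 24.0% and 26.8%, so that the higher share was near that of all genes. The cartilage list had the lowest median log2 fold change of these lists, -7.54, or -4.80 with genes that had no read in 1 group set to their bound. Of its 18 tested genes 13 were lower and 2 higher. Col2a1, the main collagen gene of cartilage, was at 1.21, 0.674 and 1.03 CPM in CT2A and at 3025, 2242, 1800.5 and 2566 CPM in GL261 (log2 fold change -11.26 ± 0.35, adjusted p = 4.74e-07). Col9a1, the gene of a collagen that coats its fibrils, was at 0.121, 0 and 0 CPM against 1277, 588, 539 and 579 CPM (log2 fold change -13.84 ± 0.73, or -15.78 without CT2A library 69). Acan, the gene of the large cartilage proteoglycan, had no read in CT2A and 53.9, 56.7, 49.8 and 45.9 CPM in GL261, at least 154-fold lower in CT2A. In these 3 genes no GL261 library was near a CT2A library. The 2 genes on the CT2A side were Sox9 and Col10a1, a collagen gene of hypertrophic cartilage.

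Fibroblast and mesenchyme markers, unlike those of cartilage, lay mostly on the CT2A side. Of 26 tested fibroblast and mesenchyme markers 19 were higher and 2 lower (median log2 fold change 4.47). Pdgfrb, the other PDGF receptor gene, was at 338, 344 and 390.5 CPM in CT2A and at 3.01, 6.06, 7.28 and 4.03 CPM in GL261 (log2 fold change 6.14 ± 0.28, adjusted p = 2.10e-06). Col5a2, a gene of a fibril-forming collagen chain, was at 641, 699 and 747 CPM against 1.94, 2.93, 4.64 and 2.25 CPM (log2 fold change 7.901 ± 0.29). Fap, the gene of a fibroblast surface protease, was at 81.6, 103 and 83.8 CPM against 3.01, 0.606, 0.628 and 1.12 CPM (log2 fold change 6.04 ± 0.45, or 6.77 without GL261 library 81). Each of these was low in all 4 GL261 libraries. Col1a1, the main collagen gene of bone and skin, was at 996, 773 and 404 CPM against 23.02, 41.2, 26.6 and 26.2 CPM (log2 fold change 4.63 ± 0.35), so that it varied more within CT2A than the others. The fibronectin gene Fn1 was one of the 2 lower members, at 1947, 2266 and 1637 CPM against 2772, 2935, 2683 and 3705 CPM (log2 fold change -0.63 ± 0.18, adjusted p = 0.0185), and was not called without CT2A library 69 (adjusted p = 0.0604) or 71 (0.0768). The other was Pi16, a gene of fibroblast progenitors, under 4 CPM in all 7 libraries, which was not called without GL261 library 83 or without CT2A library 69 or 71 (adjusted p = 0.0537 to 0.094).

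Bone and muscle markers were called in both directions. Of 11 tested osteoblast markers 6 were higher and 2 lower in CT2A, while 4 of 6 tested tendon markers were higher. Sparc, an abundant gene of bone matrix, was at 1204, 951 and 966 CPM against 1404, 866, 826 and 1021 CPM and was not called (adjusted p = 0.959). Of 15 tested smooth muscle and pericyte markers 3 were higher and 6 lower (median log2 fold change -0.638). Of 10 skeletal muscle markers 4 were higher and 4 lower. Tnnt2, a troponin gene of heart and embryonic muscle, was at 81.4, 69.3 and 54.99 CPM in CT2A and at 0.538, 0.303, 0.377 and 0.656 CPM in GL261 (log2 fold change 7.14 ± 0.27). Cdh15, a cadherin gene of muscle precursors, was at 95.5, 78.9 and 70.4 CPM against 10.9, 0.909, 1.004 and 0.656 CPM (log2 fold change 4.602 ± 0.85). Library 81 was far above the other GL261 libraries for Cdh15, and without it the log2 fold change was 6.57. Myh3, the embryonic myosin gene, was on the GL261 side at 0.121, 0.225 and 0 CPM against 51.6, 21.5, 19.5 and 22.03 CPM (log2 fold change -7.84 ± 0.71), again with library 81 the highest. Its log2 fold change was -8.69 without CT2A library 70 and -7.25 without 71.

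Of 7 tested RUNX genes and their partners 5 were higher. Runx1, a factor of blood and of mesenchyme, was at 194, 229 and 196 CPM in CT2A and at 29.7, 27.4, 32.9 and 26.4 CPM in GL261 (log2 fold change 2.83 ± 0.13). Runx2, the factor of bone formation, was at 67.2, 77.1 and 59.5 CPM against 10.01, 5.05, 5.9 and 4.87 CPM (log2 fold change 3.395 ± 0.27). Of 4 tested SNAI and TWIST genes 3 were higher. Twist1, a bHLH factor of mesoderm, was at 59.4, 58.3 and 59.1 CPM against 15.1, 4.54, 6.03 and 11.5 CPM (log2 fold change 2.66 ± 0.37). Its relative Twist2 was at 16.7, 12.5 and 13.2 CPM against 0, 0, 0.126 and 0 CPM (log2 fold change 8.46 ± 0.59). Snai2, a repressor active in migrating neural crest, was at 14.4, 17.9 and 14.7 CPM against 0, 0, 0.126 and 0.187 CPM (log2 fold change 7.401 ± 0.56). GL261 had a low level of Twist1 in all 4 libraries but reads of Twist2 in 1 and of Snai2 in 2 of them. Without the library with the most such reads the log2 fold change was 10.06 for Twist2 (library 83) and 8.26 for Snai2 (library 84).

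Factors with known roles in limb and tendon, picked here from several lists, were not all on 1 side. Prrx2, a homeobox factor of limb mesenchyme, was at 30.3, 21.6 and 28.8 CPM in CT2A and at 0.646, 0.101, 0.126 and 0 CPM in GL261 (log2 fold change 6.89 ± 0.60, or 8.32 without GL261 library 81). Its relative Prrx1 was abundant in both lines, at 504, 532 and 549 CPM against 246, 277, 329.5 and 514 CPM, and was not called (adjusted p = 0.0613) but was higher in CT2A without GL261 library 84 (adjusted p = 0.00323). Shox2, a homeobox factor of proximal limb, was at 82.6, 85.4 and 86.96 CPM against 4.73, 4.75, 4.896 and 5.91 CPM (log2 fold change 4.06 ± 0.14). The spread of Shox2 within either line was small beside the gap between them. Mkx, a homeobox factor of tendon, was at 23.5, 22.3 and 21.1 CPM against 0, 0, 0.251 and 0.187 CPM (log2 fold change 7.54 ± 0.54). Tbx18, a T-box factor of mural cells and limb, was at 40.2, 48.1 and 39.2 CPM against 1.399, 1.51, 1.88 and 0.469 CPM (log2 fold change 5.02 ± 0.35). Tbx4, a T-box factor of hindlimb and lung, was on the GL261 side at 0.483, 0 and 0.308 CPM against 32.4, 29.7, 22.3 and 31.3 CPM (log2 fold change -6.72 ± 0.51, or -7.38 without CT2A library 69). Of 8 tested T-box genes 3 were higher and 2 lower.

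The HOX clusters differed from each other. Cluster C, on chromosome 15, was higher in CT2A at all 8 tested genes (median log2 fold change 3.23). Hoxc10, a gene of the lumbar level, was at 71.7, 65.9 and 59.8 CPM in CT2A and at 7.75, 7.17, 5.65 and 8.62 CPM in GL261 (log2 fold change 3.17 ± 0.17, adjusted p = 3.85e-06). Hoxc11, next to it in the cluster, was at 47.1, 35.7 and 41.2 CPM against 0, 0, 0 and 0.0937 CPM (log2 fold change 10.02 ± 0.43, or 11.54 without library 84, which held the GL261 reads). Hoxc13, at the posterior end, was at 5.19, 5.62 and 5.96 CPM with no read in GL261, at least 17.4-fold higher. GL261 was thus low but not at 0 for Hoxc10. In cluster A 5 of 10 tested genes were higher. Hoxa9 was at 18.6, 16.2 and 12.1 CPM against 0, 0.707, 0.377 and 0.7499 CPM (log2 fold change 5.02 ± 0.60). The 10 cluster B genes did not reach the minimum level and summed to at most 0.925 CPM in CT2A and 1.76 CPM in GL261. Of the 2 tested cluster D genes Hoxd8 was lower, at 8.81, 7.31 and 8.53 CPM against 22.3, 15.4, 16.1 and 18.2 CPM (log2 fold change -1.13 ± 0.20).

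Several other homeobox genes were nearly confined to 1 line among these 7 libraries. En1, a factor of the midbrain-hindbrain boundary and of limb ectoderm, was at 15.3, 18.1 and 17.2 CPM in CT2A with no read in GL261, at least 52.5-fold higher. Lbx1, a factor of dorsal spinal cord and migrating muscle precursors, was at 24.4, 20.7 and 24.2 CPM against 0, 0, 0 and 0.187 CPM (log2 fold change 8.45 ± 0.56, or 10.698 without GL261 library 84). Emx2, a factor of cortex and urogenital tract, was at 21.7, 21.5 and 28.2 CPM against 0, 0.303, 0.126 and 0 CPM (log2 fold change 7.64 ± 0.57, or 8.898 without GL261 library 82). These 3 factors belong to different body regions. On the GL261 side, the brain POU factor gene Pou3f3 was at 2.66, 3.26 and 2.16 CPM against 43.4, 44.9, 49.7 and 68.2 CPM (log2 fold change -4.26 ± 0.26). Pax5, a paired-box factor of B cells and of the midbrain-hindbrain boundary, was at 0.121, 0 and 0 CPM against 14.1, 16.5, 15.6 and 16.3 CPM (log2 fold change -8.26 ± 0.53, or -10.198 without CT2A library 69). The B cell gene Ms4a1 was at 0.126 to 0.375 CPM in these GL261 libraries, and the part of B cells in the Pax5 values was not tested. Of 23 tested forkhead genes 8 were higher and 8 lower. Foxl2, a factor of ovary and pituitary, was at 0.362, 0.562 and 0.925 CPM against 43.1, 14.6, 11.9 and 12.5 CPM (log2 fold change -5.01 ± 0.67), with library 81 well above the other GL261 libraries (-4.35 without it).

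Factors that act at the end of signaling pathways also differed. The TEAD factors and their cofactors, which act in the Hippo pathway, had 4 of 8 tested genes higher and 2 lower in CT2A. Tead1 was at 493, 593 and 553 CPM in CT2A and at 94.03, 93.4, 104 and 106 CPM in GL261 (log2 fold change 2.46 ± 0.13). The cofactor gene Wwtr1, also called TAZ, was at 624, 614 and 661 CPM against 119.7, 44.1, 48.5 and 54.1 CPM (log2 fold change 3.25 ± 0.35). Wwtr1 ranked 8 among the listed factor genes of CT2A by TPM, with 220.3 ± 15.1 TPM (SD, n = 3). The cofactor gene Vgll3 lay on the GL261 side at 1.81, 2.25 and 2.16 CPM against 34.0, 30.4, 39.7 and 21.8 CPM (log2 fold change -3.91 ± 0.27). Of 11 tested SMAD and SKI genes, which serve TGF-beta and BMP, 7 were higher and 2 lower. Smad5, a BMP effector gene, was at 284, 333 and 317 CPM against 61.8, 78.6, 80.7 and 86.4 CPM (log2 fold change 2.02 ± 0.15). Among 18 tested genes of hedgehog, WNT, TGF-beta, activin and BMP signaling, which are ligands and some receptors, proteases and antagonists, 12 were higher and 4 lower. Inhba, the gene of an activin subunit, was at 288, 332 and 281 CPM against 0.4303, 0.707, 2.26 and 2.44 CPM (log2 fold change 7.68 ± 0.43).

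Hey1, a target of Notch, was at 109, 86.3 and 106 CPM in CT2A and at 1.08, 3.13, 2.89 and 4.41 CPM in GL261 (log2 fold change 5.11 ± 0.35). Hes1, another Notch target, was at 80.7, 77.5 and 63.6 CPM against 15.3, 6.97, 10.7 and 16.1 CPM (log2 fold change 2.59 ± 0.28). Of 9 tested genes of their family 3 were higher and 1 was lower, Heyl (log2 fold change -3.61, or -4.27 without CT2A library 70). Of 26 tested nuclear receptor genes 10 were higher and 5 lower. Nr2f2, a factor of veins and mesenchyme, was at 112, 124 and 137 CPM against 0.753, 3.43, 5.77 and 3.84 CPM (log2 fold change 5.18 ± 0.45). Rora, a receptor of the circadian system, was on the GL261 side at 4.59, 6.18 and 9.56 CPM against 99.4, 68.9, 66.5 and 64.6 CPM (log2 fold change -3.46 ± 0.29). Library 81 was the lowest GL261 library for Hey1 and Nr2f2 and the highest for Rora.

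Plagl1, a zinc finger factor and imprinted gene, was at 2.41, 4.38 and 3.29 CPM in CT2A and at 887, 714, 809 and 1063 CPM in GL261 (log2 fold change -8.003 ± 0.29, adjusted p = 7.85e-07). Peg3, another zinc finger gene, was at 0.604, 0.674 and 1.13 CPM against 83.2, 111, 108 and 111 CPM (log2 fold change -6.96 ± 0.26). The growth factor gene Igf2 was at 2.66, 1.798 and 2.36 CPM against 185, 118, 104 and 126 CPM (log2 fold change -5.87 ± 0.29). All 3 were separated without overlap, and library 81 was the lowest GL261 library for Peg3. Of 7 tested markers of germ cells and pluripotency 4 were lower and 1 higher. Dppa4, a gene of pluripotent cells, had no read in CT2A and 33.2, 31.2, 26.6 and 33.7 CPM in GL261, at least 92.9-fold lower in CT2A. Lin28b, an inhibitor gene of let-7 maturation, was the higher one at 4.104, 6.74 and 6.06 CPM against 0, 0, 0.377 and 0 CPM (log2 fold change 5.896 ± 0.87), where all GL261 reads were in library 83 (8.74 without it). Of 8 tested epithelial markers 5 were lower and 1 higher. Krt8, a keratin gene of simple epithelium, was at 0, 0.112 and 0.308 CPM against 47.9, 56.5, 76.3 and 25.2 CPM (log2 fold change -8.32 ± 0.66, or -9.48 without CT2A library 71).

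Growth control genes were called in both directions. Of 24 tested genes of the p53 pathway and of cell cycle brakes 5 were higher and 10 lower. Cdkn2b, the gene of the cyclin kinase inhibitor p15, had no read in CT2A and 17.0, 13.1, 13.6 and 12.0 CPM in GL261, at least 41.4-fold lower in CT2A. Cdkn2a, next to it on chromosome 4, was at 16.8, 13.7 and 12.03 CPM against 120.2, 95.2, 79.96 and 105 CPM (log2 fold change -2.82 ± 0.20). Cdkn2a thus had reads in CT2A where its neighbor had none. Of 36 tested genes of FGF, EGF and PDGF signaling 12 were higher and 13 lower. The receptor gene Egfr was at 36.8, 42.8 and 36.7 CPM against 0.323, 0.303, 0.628 and 0.562 CPM (log2 fold change 6.39 ± 0.26). Tgfa, 1 of its ligand genes, was at 1.93, 2.47 and 1.23 CPM against 90.3, 145, 136 and 106 CPM (log2 fold change -5.99 ± 0.30), and other ligand genes of this receptor were called on either side. Of 30 tested proliferation genes 8 were higher and 8 lower (26.7% each), near the 24.0% and 26.8% of all genes. Ccnd3, a cyclin gene of G1 phase, was at 59.1, 54.2 and 57.9 CPM against 451, 429, 392 and 429 CPM (log2 fold change -2.897 ± 0.13).

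Of 26 tested AP-1, ATF and CREB genes 14 were lower and 4 higher (median log2 fold change -0.725). Creb5 was at 7.97, 10.7 and 16.4 CPM in CT2A and at 185, 108, 108 and 114 CPM in GL261 (log2 fold change -3.45 ± 0.32). Nr4a1, an immediate early receptor gene, was at 14.6, 13.5 and 15.4 CPM against 296, 152, 159.5 and 154 CPM (log2 fold change -3.71 ± 0.29). Library 81 was the highest of its group in both. Fosl1, an AP-1 gene, was on the CT2A side at 64.2, 48.6 and 30.1 CPM against 10.1, 17.3, 13.1 and 10.9 CPM (log2 fold change 1.89 ± 0.29). The abundant AP-1 gene Jun was at 652, 505 and 442 CPM against 751, 458, 471 and 612 CPM and was not called (adjusted p = 0.718). The immediate early gene Egr1 was at 407, 347 and 238 CPM against 631, 241, 262 and 302 CPM, with library 81 the highest of all 7 and no call (adjusted p = 0.806).

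All 6 tested STAT genes were lower in CT2A (median log2 fold change -2.35), and 5 of 8 tested IRF genes were lower. Stat2, an interferon signal transducer, was at 23.5, 23.9 and 36.1 CPM in CT2A and at 462, 296, 283 and 394 CPM in GL261 (log2 fold change -3.69 ± 0.27, adjusted p = 1.53e-05). Stat3, which answers cytokines of the IL-6 type, was at 106, 97.8 and 103 CPM against 691, 509, 504 and 601 CPM (log2 fold change -2.49 ± 0.16, adjusted p = 8.57e-06). Irf9, the DNA-binding partner of STAT2, was at 25.1, 23.2 and 33.5 CPM against 82.8, 107, 102 and 121 CPM (log2 fold change -1.92 ± 0.19, adjusted p = 8.03e-05). The groups did not overlap in these 3 genes, as in 58.4% of all genes tested. Nfkb1, a factor of inflammatory signaling, was on the CT2A side at 207, 206 and 225 CPM against 65.3, 46.9, 51.7 and 49.7 CPM (log2 fold change 1.99 ± 0.14). The sums of T cell, NK cell and endothelial markers given above were also lower in CT2A than in every GL261 library. Single genes carried much of these sums, and the part of such cells in these results was not tested.

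Of 60 tested interferon-stimulated genes 50 were lower in CT2A and 1, Oasl1, was higher (median log2 fold change -1.81). Oasl1 was not called without CT2A library 71 (adjusted p = 0.0561). Usp18, the gene of an interferon feedback protease, was at 12.4, 9.89 and 9.56 CPM in CT2A and at 83.7, 76.8, 69.04 and 79.4 CPM in GL261 (log2 fold change -2.86 ± 0.16). Tap2, the gene of a peptide transporter subunit for MHC class I, was at 62.5, 61.7 and 64.2 CPM against 336, 293, 242 and 329.8 CPM (log2 fold change -2.26 ± 0.15). The promoters of these genes were searched for the core letters of the interferon-stimulated response element, to which the interferon-activated complex with STAT2 and IRF9 binds. The letters were GAAA, any 2 bases and GAAA again, or TTTC, any 2 bases and TTTC on the other strand, and overlapping matches were allowed. Promoters were RefSeq sequences of build GRCm38.p6 that run from 250 bases before to 50 bases after each start. The letters were in a promoter of 23 of the 46 listed genes found there (50%), of 21 of the 37 that were lower in CT2A (56.8%) and of 2 of the other 9 (22.2%). They were in a promoter of 4.06% of the genes tested here and of 3.99% of all 27025 genes in the table. A match describes the letters and is no evidence of binding. The list was made of genes known to respond to interferon, so a share above that of all genes could come from the list alone. The other 9 are too few for a contrast with the 37. The promoters of 3 lower genes are shown as examples of the letters in their place, with the matches in capitals, and were chosen after their values were seen.
Irgm1 (chr11:48871371-48871670, minus strand): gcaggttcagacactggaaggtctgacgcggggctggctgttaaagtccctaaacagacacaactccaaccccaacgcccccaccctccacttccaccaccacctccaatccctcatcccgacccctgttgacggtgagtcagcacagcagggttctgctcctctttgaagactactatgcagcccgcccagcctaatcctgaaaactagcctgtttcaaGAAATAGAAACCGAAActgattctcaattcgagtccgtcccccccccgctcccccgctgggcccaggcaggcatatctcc
Igtp (chr11:58199306-58199605, plus strand): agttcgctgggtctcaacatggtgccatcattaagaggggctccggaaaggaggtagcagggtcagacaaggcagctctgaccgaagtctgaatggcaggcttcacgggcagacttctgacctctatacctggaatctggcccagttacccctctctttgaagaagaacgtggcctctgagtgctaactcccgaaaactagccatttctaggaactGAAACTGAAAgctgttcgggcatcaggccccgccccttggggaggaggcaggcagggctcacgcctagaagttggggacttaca
Ifit3 (chr19:34583279-34583578, plus strand): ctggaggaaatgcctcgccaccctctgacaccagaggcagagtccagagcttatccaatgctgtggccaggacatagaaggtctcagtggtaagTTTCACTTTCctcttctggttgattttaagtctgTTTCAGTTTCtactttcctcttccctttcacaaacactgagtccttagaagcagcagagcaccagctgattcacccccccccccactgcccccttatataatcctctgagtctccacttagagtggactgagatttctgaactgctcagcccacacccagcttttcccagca
Irgm1, the gene of an immunity-related GTPase, was at 110.4, 115 and 145 CPM in CT2A and at 1971, 1218, 1157 and 1821 CPM in GL261 (log2 fold change -3.64 ± 0.26). Igtp, of the same family, was at 46.3, 46.8 and 58.6 CPM against 733, 1023, 819 and 1593 CPM (log2 fold change -4.36 ± 0.33). Ifit3, an antiviral gene, was at 44.1, 36.2 and 48.8 CPM against 303, 209, 195 and 256 CPM (log2 fold change -2.48 ± 0.20). Every CT2A library was below every GL261 library in all 3. The 2 matches of Irgm1 overlap, and those of Ifit3 read on the other strand.

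A search with the SOX core letters ACAAAG, or CTTTGT on the other strand, gave shares nearer to that of the genes tested. The promoters covered 53 genes of the oligodendrocyte progenitor, myelin, Schwann cell and cartilage lists. The letters were in those of 4 of the 28 that were lower in CT2A (14.3%). They were also in those of 5 of the 25 that were not called lower (20%), of 16.5% of the genes tested and of 21.0% of all genes in the table. The promoter of Sox6, which is itself a member of the family, holds 2 matches and is shown as the example.
Sox6 (chr7:115824661-115824960, minus strand): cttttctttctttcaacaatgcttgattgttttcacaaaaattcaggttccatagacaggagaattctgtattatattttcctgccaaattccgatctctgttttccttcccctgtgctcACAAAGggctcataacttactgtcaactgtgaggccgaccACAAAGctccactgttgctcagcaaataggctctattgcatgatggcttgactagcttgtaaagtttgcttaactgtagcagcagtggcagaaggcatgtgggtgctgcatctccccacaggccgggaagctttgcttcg

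The direction of difference also varied with the chromosome. Genes of chromosome 3 had a median log2 fold change of 0.826, and 403 of 664 were higher and 73 lower in CT2A. Those of chromosome 19 had a median of 0.618, with 228 of 475 higher and 76 lower. Genes of chromosome 14 had a median of -0.847, with 35 of 492 higher and 295 lower. Those of chromosome 10 had a median of -0.506, with 93 of 692 higher and 300 lower. Of the genes named above, Hey1, Wwtr1, Shox2 and Nfkb1 lie on chromosome 3, and Emx2, Lbx1 and Fosl1 on chromosome 19. Irf9 lies on chromosome 14, and Stat2 and Plagl1 on chromosome 10. Sox2 on chromosome 3 was lower in CT2A, opposite to the median of its chromosome. Prdm1, a zinc finger repressor gene on chromosome 10, was higher in CT2A at 105, 91.9 and 116 CPM against 10.01, 10.3, 13.3 and 9.19 CPM (log2 fold change 3.29 ± 0.17).

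**Figure D4:**
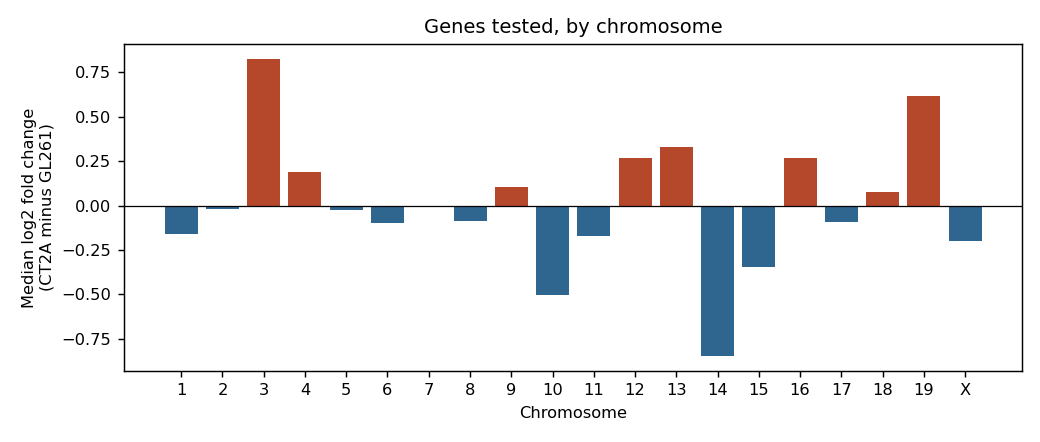
Median log2 fold change (CT2A minus GL261) of the genes tested on each chromosome, with red bars above 0 and blue bars below. Chromosome 3 (0.826) lies highest and chromosome 14 (-0.847) lowest.

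The difference between the lines was then set beside that in the other libraries. The neurosphere-derived set held 3 GL261 and 5 CT2A libraries, and the 5 are taken as CT2A from their cell line label although their titles name GL261. In this set the line difference departed from that in adherent-line cells at 922 of 13824 genes (6.67%), at 43 of 459 transcription factor genes (9.37%) and at 26 of 185 lineage markers (14.1%). Without CT2A library 71 the departures over all genes were 266. The leukocyte gene Ptprc was at 219.5 to 327 CPM in neurosphere-derived GL261 cells and at 32.1 to 75.2 CPM in those of CT2A, and its part in the departures was not tested. Sox10 kept its direction in this set with a log2 fold change of -12.67, as did Olig2 with -11.48, Hoxc10 with 3.596 and Twist2 with 8.25.

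Among the factors that departed was Cux1, a homeobox factor of upper cortical layers, at 96.1, 99.2 and 104 CPM in CT2A and 33.03, 35.9, 36.9 and 32.8 CPM in GL261 cells of adherent lines. In neurosphere-derived cells it had means of 90.6 CPM and 91.1 CPM, and the 2 line differences stood 1.62 apart on the log2 scale (adjusted p = 8.06e-04). Ets2, an ETS factor downstream of RAS signaling, was at 79.2, 74.1 and 75.96 CPM against 16.9, 23.3, 22.97 and 19.6 CPM in adherent-line cells and had means of 101 CPM and 89.3 CPM in the others (1.799 apart, adjusted p = 8.06e-04). For both factors the neurosphere-derived means of the lines were close to each other. Prdm1 had a mean of 43.05 CPM in neurosphere-derived GL261 cells and 10.7 CPM in those of adherent lines, and its line difference departed by 2.43 (adjusted p = 0.0138). Tubb3, a neuronal tubulin gene, changed direction, with a log2 fold change of -1.08 in adherent-line cells and 0.68 in the others (departure -1.72, adjusted p = 0.00885). Of the 43 transcription factor genes that departed, 2 were also called in opposite directions in the 2 sets.

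**Figure D5:**
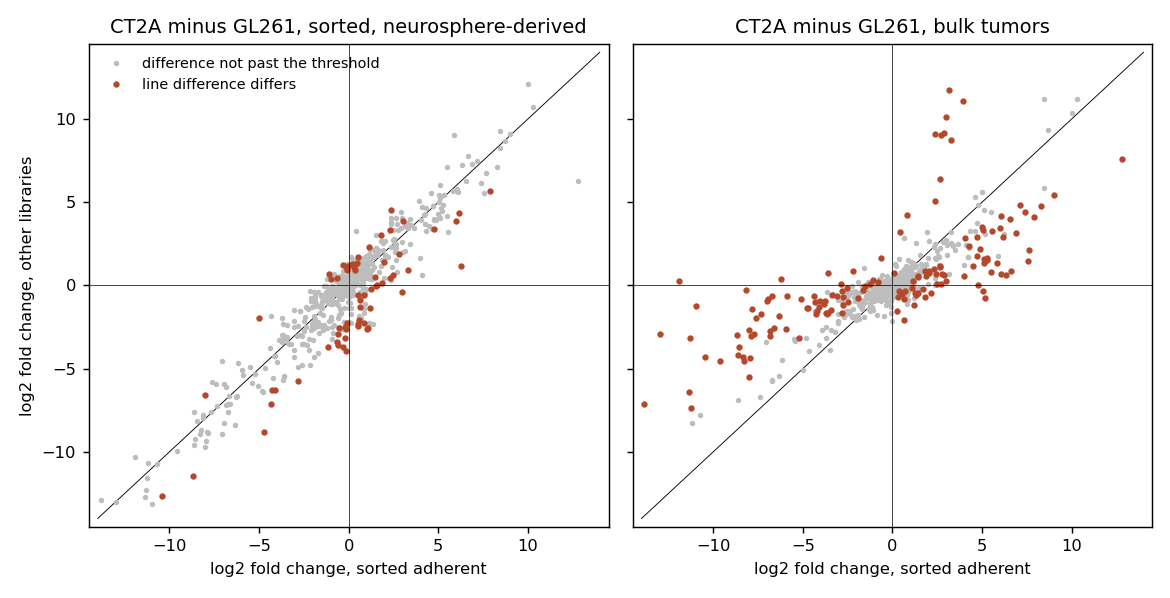
Log2 fold changes (CT2A minus GL261) of transcription factor and lineage marker genes in cells of adherent lines (horizontal) against those in neurosphere-derived cells (left panel) and in bulk tumors (right panel), with 1 point per gene, red where the 2 line differences departed at the threshold, and the line of equality. In bulk tumors Mog lies near 0 on the vertical axis and Hoxc10 (3.17 against 11.75) lies above the line.

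Against bulk tumors, 4 of each line, the line difference departed at 2135 of 15845 genes (13.5%), at 95 of 545 transcription factor genes (17.4%) and at 65 of 227 lineage markers (28.6%). The bulk tumors may also hold normal brain, and they came from lines without the surface tag, with other numbers of implanted cells and longer reads, so that these cannot be told apart. Mog had means of 18.6 CPM in bulk CT2A and 24.7 CPM in bulk GL261 tumors, and its line difference departed by -7.79 (adjusted p = 2.78e-04). Hoxc10 was at 7.75, 7.17, 5.65 and 8.62 CPM in selected GL261 cells but at a mean of 0.00651 CPM in bulk GL261 tumors, and departed by -8.21 (adjusted p = 5.76e-07). Acan was at a mean of 1.499 CPM in bulk GL261 and 1.69 CPM in bulk CT2A tumors, against the levels of selected cells given above.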

How the data were processed

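RNA of 7 libraries of selected tumor cells (3 CT2A, 4 GL261) was analysed. The authors made estimated counts and TPM per transcript with Salmon against an mm10 transcriptome from paired reads of 37 bases amplified for 12 cycles, and deposited them with effective lengths. The authors also deposited RSEM expected counts and TPM, which served as an alternative. Deposited transcripts were matched to GENCODE gene names, and their estimated counts were summed per gene and rounded. Reads without a gene (0.0723% to 0.142% of a library) were left out. Genes with a mean normalized count above 10 were tested with edgeR 4.0.16 (TMM, quasi-likelihood, Benjamini-Hochberg) in R 4.3.3, without covariates. The script was tested on simulated data. DESeq2 1.42.0 and 14 further alternatives were run. Other libraries entered with an interaction term.

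The libraries follow from their labels, but the comparison and the genes of the 79 lists were chosen with earlier results of these data known. Genes were named by rule: the 10 largest called changes each way with at least 10 CPM and no overlap, up to 3 members each way per list with the smallest p, called factor or lineage genes with an absolute log2 fold change of at least 3, the 10 most abundant such genes without a call, HOX genes with a read, and the most abundant member of each list of other cells. Per1, Cirbp, Prx, Irgm1, Igtp, Ifit3 and the defining markers of other cells were chosen after their values were seen. Counting error alone sets a floor of 3 counts per library for genes with no read. Some items are not reported here.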

Additional observations from a re-analysis of the deposited data

Results flagged for a closer look

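Of the 115 tested genes named here, 13 had a GL261 library that stood apart from the other 3 by Dixon's test at its 95% critical value, and in 12 of them it was library 81. Chance sets apart about 1 group in 20. Per1 and Cirbp are among the 12 and were named after their values were seen, so their flags carry no weight against that rate. Genes of 1 library are also not independent. Cdh15 was at 10.87 CPM in library 81, Col9a1 at 1277 CPM, Myh3 at 51.64 CPM, Foxl2 at 43.14 CPM, Wwtr1 at 119.7 CPM and Peg3 at 83.16 CPM. Library 81 also stood apart for the clock genes Per1 (460.5 CPM) and Rora (99.41 CPM), for the cold-induced Cirbp (236.6 CPM) and for the stimulus-dependent genes Creb5 (185.2 CPM), Egr1 (630.7 CPM) and Nr4a1 (296.1 CPM). It was the highest of its group in these genes but for Peg3, where it was the lowest. Shox2 was at 5.905 CPM in library 84, above the other 3 GL261 libraries.

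For 4 named genes the line difference in adherent-line cells departed from that in neurosphere-derived cells by the interaction test. The departures in log2 fold change were 1.6189 for Cux1, 1.7986 for Ets2, 2.4296 for Prdm1 and -1.721 for Tubb3, the last with opposite directions in the 2 sets. Against bulk tumors they were -7.7859 for Mog and -8.2105 for Hoxc10.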

How the results depend on the processing

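Over 15 alternatives, 97 of the 105 called genes named here stayed called in the same direction, and all 105 did without GL261 library 81. The other 8 were Cirbp, Fn1, Gja1, Oasl1, Per1, Pi16, Prx and Syt1. Most called genes were named for a small p or a large change, so these counts do not speak for all called genes. Of the uncalled genes, Vim passed with DESeq2 (adjusted p = 0.0384), Prrx1 with DESeq2 (0.0401) and without library 84, and Sox4 without library 81. Calls over all genes went from 7000 to 4425 when an absolute log2 fold change of 1 was asked, and lay between 6616 and 7641 with another tool, scaling, minimum, quantifier, length offset or all groups fitted. Leaving out 1 library gave 5556 to 8922 calls, 241 to 346 among transcription factor genes (278 with all) and 117 to 138 among lineage markers (129 with all). Departures in neurosphere-derived cells ranged from 266 (without CT2A library 71) to 997 and those in bulk tumors from 1435 to 2264. No paired analysis was possible because the groups share no replicate numbers. Depth limits genes with few reads in 1 line, whose fold changes rest on single reads, and 3 to 4 libraries of 1 line each cannot speak for other lines or tumors.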
